A study of Mus musculus with 3 samples.

Results

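Beyond the 3′ end of Ptch1, on the side away from its promoter, mouse chromosome 13 carries Fancc, a microRNA cluster and the 3′ part of Aopep. The contacts of this stretch with the Ptch1 promoter were read from 4C-seq profiles at positions 63199984 to 63610260 (mm9 build). It was chosen by position alone and holds 411 of the 1001 deposited positions, which lie 1 kb apart. In the 5 kb windows used below, 409 of the 411 positions had a value. They lie between 59.2 and 467 kb from the labelled viewpoint position, 63669139. In 4C-seq (circular chromosome conformation capture with sequencing) nuclei are fixed, and DNA ligated to a chosen fragment, the viewpoint, is amplified and sequenced. A high signal marks DNA that was often joined to the viewpoint.

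The libraries came from the telencephalon and from the anterior and posterior parts of the forelimb of mouse embryos at E11.5, with 44 to 45 somites. The limb parts were cut from the forelimbs of 20 embryos, which were pooled, and the telencephalon was the control tissue, per the labels' protocols. All cells were fixed with 2% formaldehyde for 10 min, and all libraries were made with NlaIII as the first enzyme and DpnII as the second. The sources used here do not give the strain, the genotype or the number of embryos behind the telencephalon library. With 1 library per tissue, nothing below comes with a replicate or a test, and every difference is one between these libraries. Read counts are missing from the values, so the depth is unknown, and there are no expression values with which a tissue label could be checked.

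Ptch1 is both the receptor and a transcriptional target of Hedgehog signalling, and its transcription is used as a readout of Sonic hedgehog in the limb bud, where the ligand comes from the posterior margin. In 4C data the signal usually declines with distance along the chromosome, and contacts above that decline are looked for at enhancers and at the starts of genes. Fancc encodes a subunit of the Fanconi anaemia core complex, which acts in the repair of crosslinked DNA, and Aopep encodes aminopeptidase O, a metallopeptidase.

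Along the chromosome the viewpoint is followed by the Ptch1 gene body (ENSMUSG00000021466.5, minus strand, chr13:63610261-63674474). Next comes an intergenic gap of 11.7 kb (chr13:63598587-63610260), and then Fancc (ENSMUSG00000021461.9, minus strand, chr13:63406017-63598586). Fancc has 19 annotated transcripts in GENCODE M1. Only 1 of them begins at the most upstream start, 63598586, which is 70.6 kb from the viewpoint. A shared start lies at 63533053, 136 kb from the viewpoint, where 3 transcripts begin at the same base and 9 begin within 100 bp. Aopep (ENSMUSG00000021458.9, plus strand, chr13:63066253-63427404, listed there as 2010111I01Rik) runs toward Fancc, and their 3′ ends overlap. The Mir23b, Mir27b and Mir24-1 hairpins lie in the last part of its annotated span, 267 kb from the viewpoint.

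The shared Fancc start had the highest 5 kb signal of the region among windows with at least 20 readable fragment ends, so the 250 bases before it are shown (chr13:63533054-63533303 on mm9, minus strand, read from the NCBIM37 reference). Capitals mark CATG, the NlaIII site at which the assay cuts.
Fancc shared start: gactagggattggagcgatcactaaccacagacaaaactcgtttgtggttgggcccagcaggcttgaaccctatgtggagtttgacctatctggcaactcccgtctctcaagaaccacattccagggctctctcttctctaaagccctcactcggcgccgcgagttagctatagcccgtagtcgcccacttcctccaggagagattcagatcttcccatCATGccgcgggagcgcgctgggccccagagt
The same 250 bases open the RefSeq promoter of Fancc (GRCm38.p6). They hold 1 CATG, 2 GATC (the DpnII site) and 13 CpG dinucleotides. Both sites read the same on either strand. Of 32851 RefSeq promoters cut to the same length, 53.9% hold CATG, 41.9% hold GATC and 68.5% hold fewer CpG. The median promoter holds 6 CpG.

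A second set of sequences shows how little DNA lies behind the highest running medians, inside Fancc between its annotated starts. An NlaIII fragment end is the stretch next to a cut, and it can be read only where its bases occur once in the genome. The telencephalon maximum rested on 4 such ends and the limb maximum on 6. Those on fragments that also carry a DpnII site are printed, 30 bases each, with the NlaIII site in capitals (mm9).
Telencephalon maximum, chr13:63537507-63537536, minus strand: CATGagattacaagtagaaactaaaaccca
Telencephalon maximum, chr13:63537706-63537735, plus strand: CATGtgctctaccacacccacccacccaac
Limb maximum, chr13:63546456-63546485, minus strand: CATGtgaaaaccagaggtccatatcagttt
Limb maximum, chr13:63546671-63546700, plus strand: CATGgaccggcagcatcttgtcaactgaga
Limb maximum, chr13:63546874-63546903, plus strand: CATGcctgtctcttgggactttctgcacct
Limb maximum, chr13:63546848-63546877, minus strand: CATGttactaatttctgtggcactaaatga

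Most of the region carried no graded signal. In telencephalon the 5 kb running median took 1 of only 2 values, 0.0193 or 0.0245, at 93.9% of positions. In anterior limb the values were 0.0264 and 0.0276, at 96.6% of positions, and in posterior limb they were 0.0259 and 0.0269, again at 96.6%. The lower of these levels stood in all 3 libraries at the same 318 positions (77.8%). The upper quantile of the same windows sat at the higher level at 84.1% of positions in telencephalon, 87.0% in the anterior limb and 88.0% in the posterior limb. The sources used here do not say whether these levels were measured or arose in the authors' processing. A fold against a library at its level is therefore relative to that level.

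**Figure D1:**
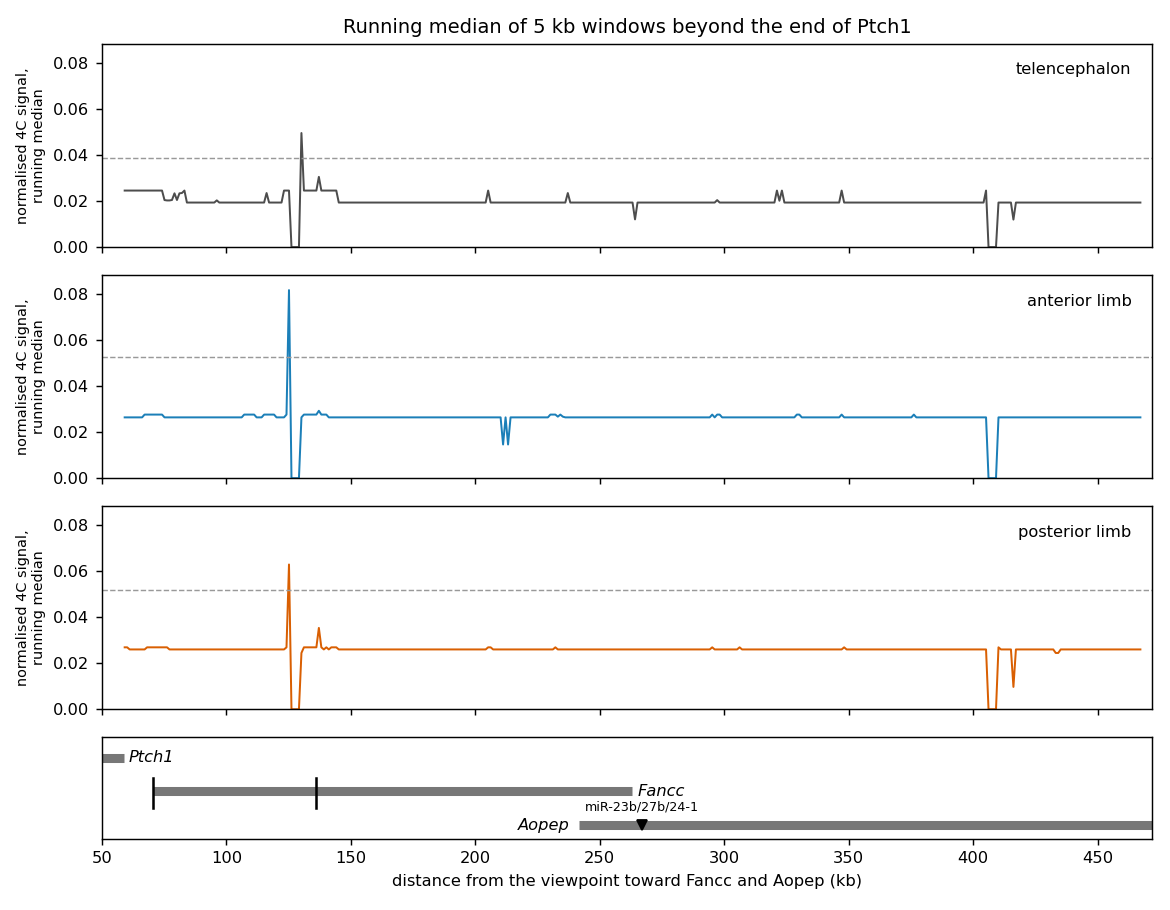
The running median of 5 kb windows (normalised 4C signal, vertical axis) is plotted against distance from the viewpoint in kb for each of the 3 libraries, with a dashed line at 2 times that library's median over the region and the genes drawn underneath (ticks on Fancc mark its starts). Each profile is a near-flat line at its own level, with 1 position above the dashed line at 125 or 130 kb and dips to 0 beside it and near 409 kb.

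Over the whole region the mean running median was 0.0196 in telencephalon, 0.0261 in the anterior limb and 0.0256 in the posterior limb. Anterior limb was 1.33 times telencephalon and posterior limb 1.31 times as deposited, but both directions turned, to 0.976 and 0.973, when every profile was divided by its median. Posterior limb was 0.981 times anterior limb as deposited and 0.997 after the division. The offset is that of the repeated levels, whose values differ between the libraries by about as much as the region does. The upper quantile averaged 0.0293, 0.0307 and 0.0302, and its limb to telencephalon ratios of 1.05 and 1.03 turned to 0.930 and 0.941 in the same way. In 2 kb windows they were below 1 also as deposited, at 0.957 and 0.931.

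The running median ratio changed in steps along the genes. In the gap next to Ptch1 anterior limb was 1.09 times telencephalon and posterior limb 1.07 times, and in Fancc upstream of the shared start the ratios were 1.30 and 1.25. From the shared start to the end of Fancc they were 1.33 and 1.32, and below Fancc, over Aopep and the microRNAs, 1.36 and 1.34. Divided by each profile's median, the ratios in the gap were both 0.800, the ratios in the part of Fancc upstream of the shared start were 0.952 and 0.934, and those below Fancc were 1.00 and 0.995. By that measure the telencephalon stood highest against the limb next to Ptch1. The medians used as divisors (0.0193, 0.0264 and 0.0259) are the lower repeated levels themselves. Any stretch at those levels therefore comes out near 1 in every library, and the ratios near 1 over Aopep follow from the division. In the gap, however, telencephalon was at 0.0245, its higher repeated level, at all 12 positions. Anterior limb ranged there only from 0.0264 to 0.0276 and posterior limb from 0.0259 to 0.0269. The gap ratios thus set repeated levels against each other and do not show a graded difference. In 2 kb windows the gap ratios were below 1 also as deposited, at 0.858 and 0.874.

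A position was called raised where its signal reached 2 times that library's own median over the region. By the upper quantile 38 of 409 positions were raised in telencephalon (9.29%), 23 in the anterior limb (5.62%) and 23 in the posterior limb (5.62%). Over all 976 positions more than 10 kb from the viewpoint the same thresholds were passed by 11.7%, 12.4% and 17.6%, which is more than here in each library. The 976 include positions nearer to the viewpoint than any of the region, so that comparison is not matched for distance. At the same distances on the other side of the viewpoint, 13 of 410 positions were raised in telencephalon, 22 in the anterior limb and 74 in the posterior limb. Against these, raised positions were less frequent here only in the posterior limb. Of the 50 positions of the region raised in at least 1 library, 12 were raised in all 3, 10 in 2 of them, and 28 in a single library. The last were 16 in telencephalon, 8 in the anterior limb and 4 in the posterior limb. This overlap was not counted over the 976 positions, so it cannot be said whether it is particular to the region. By the running median 1 position was raised in each library, against 2.36%, 1.02% and 2.97% of the 976 positions.

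**Figure D2:**
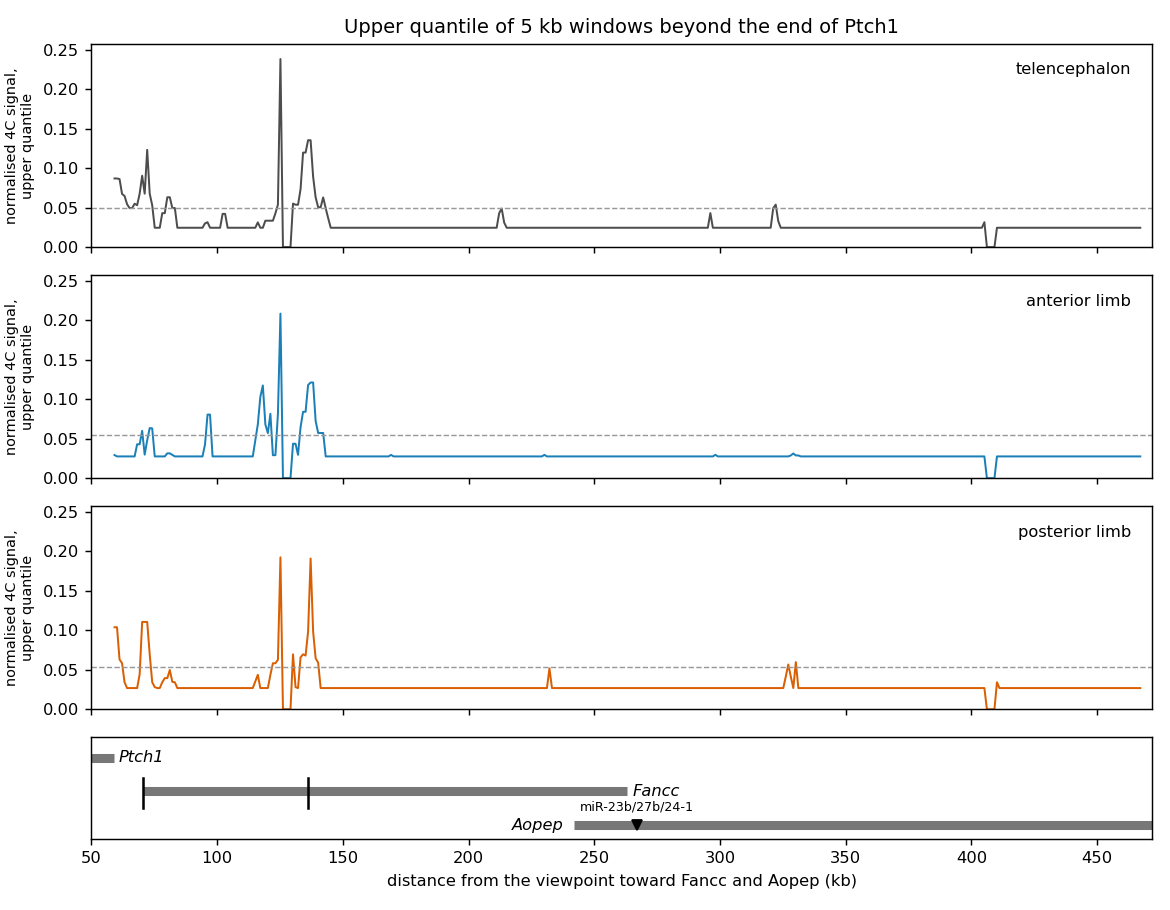
The upper quantile of 5 kb windows (normalised 4C signal) is plotted against distance from the viewpoint in kb for each library, with the same dashed line and gene map. Signal above the line lies almost wholly between 59 and 143 kb, next to Ptch1 and over the upstream part of Fancc, with highest points of 0.238 in telencephalon, 0.208 in the anterior limb and 0.192 in the posterior limb.

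Most raised positions of the region lay within 200 kb of the viewpoint. Under 100 kb 20 of 41 positions were raised in telencephalon (48.8%), 5 in the anterior limb (12.2%) and 8 in the posterior limb (19.5%). Of the 976 positions 11.7%, 12.4% and 17.6% were raised, so the limb shares under 100 kb were near those of all positions. From 100 to 200 kb the counts were 16, 18 and 13 of 100, and from 200 to 300 kb they were 0 in every library. From 300 to 400 kb telencephalon and posterior limb had 2 each and anterior limb 0, and of the 68 positions at 400 kb or more 0 were raised in any library. The longest stretch with no raised position in any library held 177 positions, from 320 to 144 kb. It takes in the 3′ part of Fancc, the microRNA cluster and the 3′ end of Aopep. The upper quantile there stayed at or below 0.0489 in telencephalon, 0.0296 in the anterior limb and 0.0518 in the posterior limb.

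In the gap next to Ptch1 the telencephalon library was raised throughout. All 12 positions were raised in telencephalon, 1 in the anterior limb (8.33%) and 5 in the posterior limb (41.7%). Of the 976 positions 11.7%, 12.4% and 17.6% were raised, so the anterior limb share was near that of all positions. The windows of these 12 positions overlap and share fragment ends. The upper quantile ranged from 0.0494 to 0.0904 in telencephalon, from 0.0276 to 0.0600 in anterior limb and from 0.0269 to 0.111 in posterior limb, with means of 0.0676, 0.0330 and 0.0544. Anterior limb was thus at 0.488 times telencephalon and posterior limb at 0.804 times, and dividing by the medians left these at 0.434 and 0.734. The separation was widest at the end of the gap that touches Ptch1. From 63605984 to 63609984 telencephalon averaged 0.0784, posterior limb 0.0727 and anterior limb 0.0279. Anterior limb was at its higher level, 0.0276, at 4 of these 5 positions and at 0.0293 at the last. Telencephalon was 2.81 times anterior limb there, and 2.75, 2.39 and 2.62 times in 2, 10 and 20 kb windows. Posterior limb was 2.94 times anterior limb over the last 4 of these positions, and 2.56, 2.32 and 2.26 times at the other widths. These windows held 58 to 68 unique fragment ends. They reach up to 3 kb toward the viewpoint and so take in the last bases of Ptch1 as well as the gap.

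**Figure D3:**
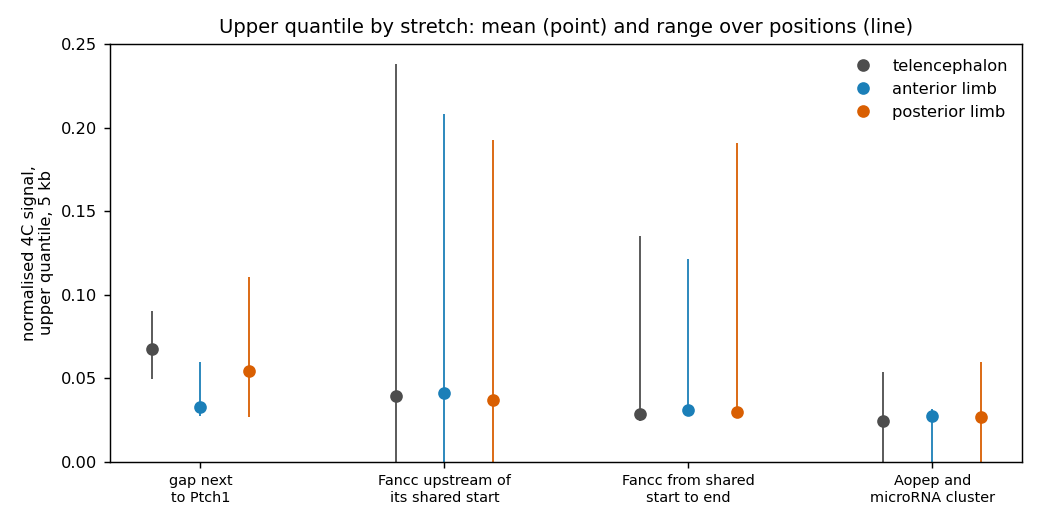
Points are the mean and lines the range of the upper quantile of 5 kb windows (normalised 4C signal) over the positions of each of 4 stretches, for the 3 libraries. In the gap the telencephalon range starts at 0.0494, above the anterior limb mean of 0.0330, while in the other stretches the means of the libraries lie close together.

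The most upstream Fancc start lies at the far side of that gap. Its 5 windows were all raised in telencephalon, 4 of them in posterior limb and 2 in anterior limb. Of the 976 positions 11.7% were raised in telencephalon, 17.6% in posterior limb and 12.4% in anterior limb. Across the 5 windows the upper quantile was 0.0677 to 0.123 in telencephalon, 0.0442 to 0.111 in posterior limb and 0.0298 to 0.0635 in anterior limb. The means were 0.0833, 0.0891 and 0.0489, so that anterior limb had the lowest. Its range overlapped that of posterior limb. At 63595984 the libraries were alike, at 0.0677 in telencephalon, 0.0696 in posterior limb and 0.0635 in anterior limb. In the 2 kb windows that hold the start, telencephalon stood at 0.200 in both, posterior limb at 0.222 and 0.223, and anterior limb at 0.0298 and 0.0960. Of the 10 kb windows all 10 were raised in telencephalon and 0 in either limb library, and of the 20 kb windows 15 of 20 were raised in telencephalon, 0 in the anterior and 6 in the posterior limb. Over all positions 10.9% were raised at 10 kb in telencephalon, 10.6% in the anterior limb and 17.4% in the posterior limb. At 20 kb these shares were 10.4%, 8.64% and 14.6%. Windows of the same width at this start overlap and share fragment ends, so their counts are not independent. The 5 kb running median at this start was at its higher level in every library. The 2 kb running median at 63597984 was raised in telencephalon, at 0.0530, with anterior limb at 0.0276 and posterior limb at 0.0269.

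From 63596984 to 63597984, which are among the windows above that hold the most upstream start, telencephalon averaged 0.0954, posterior limb 0.111 and anterior limb 0.0389. Telencephalon was 2.45 times anterior limb in these 5 kb windows and 2.22, 1.36 and 1.79 times in 2, 10 and 20 kb windows. Posterior limb was 2.84 times anterior limb in 5 kb windows and 1.65, 0.897 and 1.13 times in the others, so its direction turned at 10 kb. Farther into the gene, from 63587984 to 63588984, telencephalon averaged 0.0631, anterior limb 0.0315 and posterior limb 0.0446. Telencephalon was 2.01 times anterior limb there, and 2.63, 1.56 and 1.49 times at the other widths.

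At the shared Fancc start all 3 libraries were raised. Each of the 5 overlapping windows that hold it was raised in each library, on 32 to 48 unique ends. Of the 976 positions 11.7% were raised in telencephalon, 12.4% in the anterior limb and 17.6% in the posterior limb. From the window farthest from the viewpoint to the nearest, the upper quantile was 0.0892, 0.135, 0.135, 0.120 and 0.120 in telencephalon. In anterior limb it was 0.121, 0.121, 0.118, 0.0841 and 0.0841. In posterior limb it was 0.0984, 0.191, 0.0984, 0.0680 and 0.0696. The values of the libraries overlapped, and the means of 0.120, 0.106 and 0.105 were 4.89, 3.83 and 3.91 times the libraries' own medians over the region. The start lies 65.5 kb beyond the most upstream one, where anterior limb was mostly not raised.

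The same start was also raised at other window widths, whose windows share its fragment ends. Windows of the same width that hold it overlap, so their counts repeat the same local signal and are not independent. Some of the 20 kb windows also reach the maximum at 125 kb described below. In the 2 kb windows that hold it the upper quantile averaged 0.273 in telencephalon, 0.176 in the anterior limb and 0.211 in the posterior limb, and both windows were raised in each library. Over all positions 13.7%, 14.7% and 20.1% were raised at that width. All 10 of the 10 kb windows were raised in each library, with means of 0.0919, 0.0808 and 0.0694. At 20 kb, 16, 12 and 13 of 20 windows were raised, where 10.4%, 8.64% and 14.6% of all positions were. The 5 kb running median was near its level, with highest values of 0.0305, 0.0292 and 0.0353 at 63531984. The 2 kb running median at 63533984, on 18 unique ends, was 0.0733 in telencephalon, 0.0646 in the anterior limb and 0.0658 in the posterior limb. That was the only position of the region whose 2 kb running median was raised in all 3 libraries, and 3.47%, 1.63% and 4.29% of all positions were raised by that measure.

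**Figure D4:**
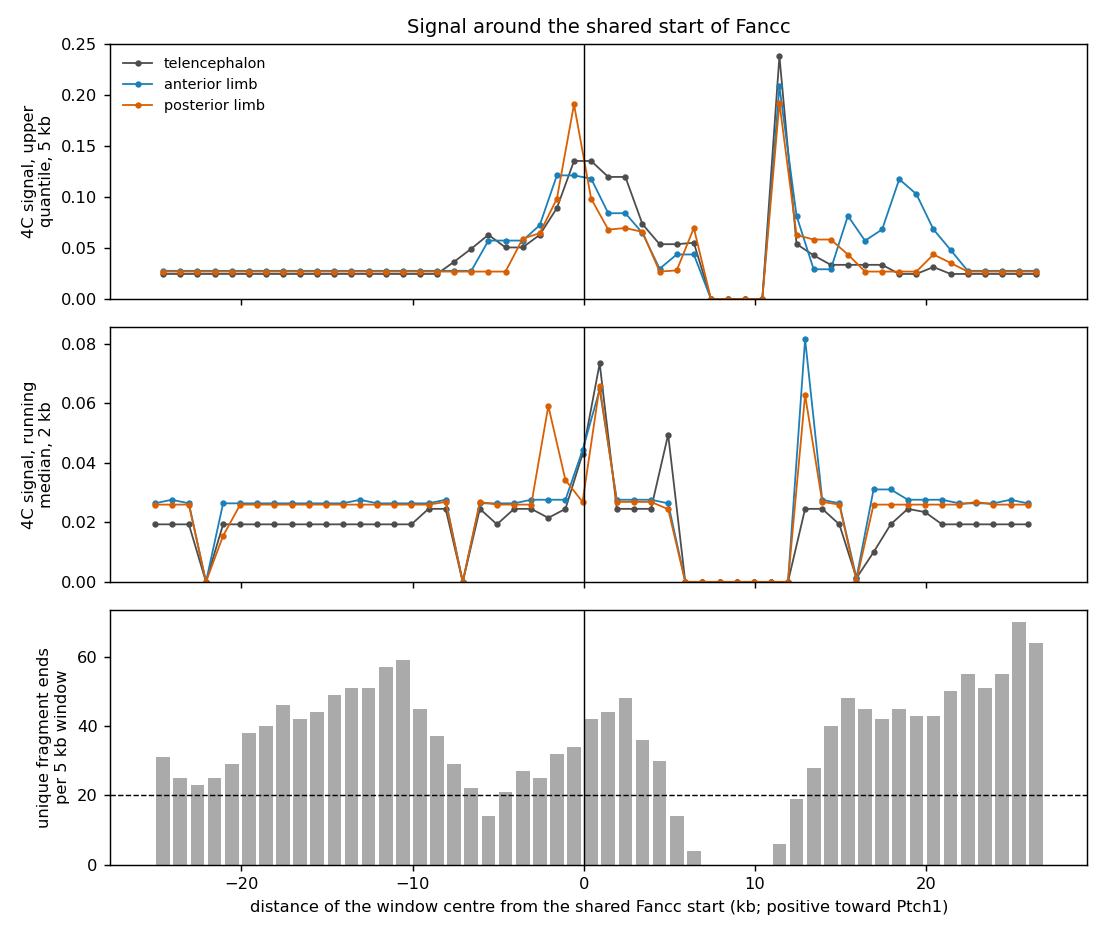
Upper quantile of 5 kb windows (top), running median of 2 kb windows (middle) and number of unique fragment ends per 5 kb window (bottom; dashed line at 20) are plotted against the distance of the window centre from the shared Fancc start in kb, for the 3 libraries. In the top panel all libraries peak over the start, on windows of 32 to 48 ends, and again about 11 kb nearer to Ptch1. Only 6 unique ends lie at that second peak, beside 4 windows with 0. In the middle panel the second peak is in the limb libraries only (0.0815 in anterior and 0.0628 in posterior limb), with telencephalon at 0.0245.

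The highest upper quantile of the region lay between the annotated starts, at 63543984, 125 kb from the viewpoint. It was 0.238 in telencephalon, 0.208 in the anterior limb and 0.192 in the posterior limb. This window is intronic in Fancc and held 6 unique ends of 36. The running median in it was 0.0815 in the anterior and 0.0628 in the posterior limb, and 0.0245, a repeated level, in telencephalon. The telencephalon maximum of the running median, 0.0495, lay 5 kb farther out at 63538984, on 4 unique ends of 24, where anterior limb was at 0.0264 and posterior limb at 0.0244. From 63539984 to 63542984, between those positions, every library was at 0. The stretch these windows reach holds 50 fragment ends, none of them unique, with a median of 4587 copies of an end in the genome and up to 29258. With windows of at least 20 unique ends alone, no library had a running median that was raised. The part of repeated sequence in the maxima was not tested.

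Toward Ptch1 from that repeat, the anterior limb library differed from the others. From 63549984 to 63552984, 116 to 119 kb from the viewpoint and on 42 to 45 unique ends, the upper quantile averaged 0.0892 in anterior limb, 0.0285 in telencephalon and 0.0310 in posterior limb. Anterior limb was 3.13 times telencephalon there, and 2.96, 1.76 and 1.16 times in 2, 10 and 20 kb windows. Against posterior limb, from 63548984 to 63551984, the ratio was 3.22, and 3.08, 1.69 and 1.09 times at the other widths. The interval is intronic in Fancc, and its 5 kb windows border or take in the pseudogene Gm16134 (chr13:63548238-63548573), where the upper quantile was 0.0815 in anterior limb, 0.0335 in telencephalon and 0.0436 in posterior limb. That 5 kb window also takes in the 6 unique ends of the limb maximum, and in the nearest 2 kb window at the pseudogene every library was at its level (0.0245 in telencephalon, 0.0276 in the anterior and 0.0269 in the posterior limb).

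Other intervals that set anterior limb apart were shorter or held at fewer widths. From 63571984 to 63572984, 96 to 97 kb away, anterior limb averaged 0.0805, telencephalon 0.0280 and posterior limb 0.0269, the last at its level. The folds of 2.87 over telencephalon and 3.0 over posterior limb were 1.12 and 1.03 in 10 kb windows. In the 2 kb window at 63571984, on 6 unique ends, all libraries were raised, at 0.0905 in telencephalon, 0.101 in the anterior limb and 0.0818 in the posterior limb. From 63526984 to 63527984 anterior limb, at 0.0573, was 2.13 times posterior limb, with telencephalon at 0.0567, on 14 to 21 unique ends. At 10 kb that fold was 1.09. From 63545984 to 63546984 posterior limb, at 0.0583, was 2.00 times anterior limb, but 0.880, 0.535 and 0.630 times at 2, 10 and 20 kb, so that the direction turned at every other width.

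Few positions separated the tissues in all. By the upper quantile anterior limb reached 2 times telencephalon at 7 of 409 positions (1.71%, against 5.02% of the 976 positions), and telencephalon reached 2 times anterior limb at 9 (2.20% against 2.87%). Posterior limb exceeded telencephalon in this way at 3 positions (0.733% against 10.6%) and the reverse held at 5 (1.22% against 1.43%). Posterior limb exceeded anterior limb at 10 positions (2.44% against 8.91%) and the reverse held at 8 (1.96% against 1.74%). Grouped into runs of at least 2 positions, these gave 11 intervals, with 0 between posterior limb and telencephalon in either direction. That 0 held for 5 kb windows at this threshold: in 2 kb windows there were 4 intervals in each direction, and telencephalon over posterior limb had 6 at a threshold of 1.5 times and 4 after division by the medians. All 11 of the intervals in 5 kb windows at 2 times lie in Fancc or in the gap, and 0 in Aopep. A place where a library differed from both others was counted in each comparison, so these are fewer than 11 separate places. By the running median 0 such runs were found in any direction, and single positions numbered 3 for anterior limb over telencephalon, 0 for the reverse, 2 and 1 for posterior limb and telencephalon, and 0 and 1 for posterior limb and anterior limb. The shares among the 976 positions were 1.23%, 0.922%, 2.36%, 0.512%, 1.74% and 0.102% in the same order.

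Downstream of its shared start, Fancc in 5 kb windows was near the repeated levels, apart from the positions beside the start. There 8 of 127 positions were raised in telencephalon, 7 in the anterior limb and 5 in the posterior limb, against 16, 15 and 11 of 65 upstream of that start. The upstream shares were 24.6%, 23.1% and 16.9%, where 11.7%, 12.4% and 17.6% of the 976 positions were raised. The mean upper quantile was 0.0285, 0.0308 and 0.0300 downstream, and 0.0393, 0.0412 and 0.0369 upstream. All of the downstream raised positions lie between 63525984 and the start itself, within 143 kb of the viewpoint. In 2 kb windows each library had further maxima in this part of the gene, at positions where no other library was raised. Posterior limb stood at 0.111 at 63452984 and at 0.0979 at 63430984, on 11 and 18 unique ends. Anterior limb stood at 0.0803 at 63498984, on 20 ends. Telencephalon stood at 0.0675 at 63500984 and at 0.0671 at 63456984, on 10 and 9 ends. The 3′ end of Fancc (63406017), and the starts of the noncoding transcripts Gm16907, Gm16133 and Gm16132, lay in windows where the upper quantile was 0.0245 in telencephalon, 0.0276 in the anterior limb and 0.0269 in the posterior limb.

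The microRNA cluster was at the repeated levels in every library. Mir23b (chr13:63401792-63401865), Mir27b (chr13:63402020-63402092) and Mir24-1 (chr13:63402516-63402583), all on the plus strand, were placed by matching RefSeq hairpins to the mm9 sequence. Mir3074-1 (chr13:63402507-63402591) overlaps Mir24-1 on the minus strand. In all windows that hold any of them, on 28 to 67 unique ends, the running median was 0.0193 in telencephalon, 0.0264 in the anterior limb and 0.0259 in the posterior limb, and the upper quantile was 0.0245, 0.0276 and 0.0269. MicroRNAs repress messenger RNAs through a seed, bases 2 to 8 of the mature strand, and mature strands of the cluster are shown with that seed in capitals (RefSeq, GRCm38.p6), because the cluster is the noncoding element of the region with a defined product. No seed is shared among these strands.
mmu-miR-23b-5p: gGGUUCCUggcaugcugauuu
mmu-miR-27b-3p: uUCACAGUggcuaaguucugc
mmu-miR-24-3p: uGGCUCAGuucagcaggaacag

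Aopep, the farthest gene, held few raised positions. Below Fancc 2 of 205 positions were raised in telencephalon (0.976%), 0 in the anterior limb and 2 in the posterior limb (0.976%). Of the 976 positions, many of them nearer to the viewpoint, 11.7%, 12.4% and 17.6% were raised. On the other side of the viewpoint 0, 3 and 7 of 100 positions were raised from 300 to 400 kb. At 400 kb or more 3, 6 and 33 of 69 were raised there. The telencephalon positions were 63346984 and 63347984, 322 and 321 kb away, with a highest upper quantile of 0.0538 where anterior limb was at 0.0276 and posterior limb at 0.0269. The posterior limb positions were 63338984 and 63341984, with a highest value of 0.0597 where telencephalon was at 0.0245 and anterior limb at 0.0288. In 2 kb windows anterior limb was raised beside posterior limb, at 0.0573 against 0.108 at 63340984 and at 0.0683 against 0.0567 at 63341984. Anterior limb also had a 2 kb maximum of 0.0682 at 63267984, on 16 unique ends, where the other libraries were at their levels. At the annotated Aopep ends between 63400964 and 63427404 all libraries were at their levels. Another stretch at 0 in all libraries, from 63259984 to 63262984, lies in Aopep, and 4 of its 52 fragment ends are unique.

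One narrow Aopep window stood out in telencephalon. In the 2 kb window at 63373984, 295 kb from the viewpoint, the upper quantile was 1.26 in telencephalon, 0.0684 in the anterior limb and 0.0342 in the posterior limb. This was the highest 2 kb value of the region in any library. It rested on 8 unique ends, and anterior limb was also raised in that window. The 5 kb window at the same position read 0.0245 in telencephalon, its repeated level, on 28 ends. The neighbouring 2 kb windows, which share 1 kb with it, read 0 and 0.0245 in telencephalon.

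By the upper quantile the profiles of telencephalon and posterior limb had the highest correlation. Over the 388 windows with at least 20 unique ends, Pearson's r of log2(upper quantile + 0.001) was 0.802 between posterior limb and telencephalon, 0.579 between anterior limb and telencephalon, and 0.571 between the limb parts. These are descriptions across overlapping windows of 1 chromosome that share their fragment ends and most of their repeated levels. Over all 409 windows the coefficients were 0.944, 0.898 and 0.911, with the shared positions at 0 included. By the running median over all windows the order was another: r was 0.991 between the limb parts, 0.978 between posterior limb and telencephalon, and 0.973 between anterior limb and telencephalon. Over the 388 windows those coefficients were 0.0630, 0.466 and 0.157.

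Against the same distances on the other side of the viewpoint, the region differed most in the posterior limb. There the mean upper quantile was 0.751 times that of the 410 mirrored positions, against 0.996 times in anterior limb and 1.11 times in telencephalon. Raised positions numbered 23 here and 74 on the other side in posterior limb, 23 and 22 in anterior limb, and 38 and 13 in telencephalon. Under 100 kb telencephalon on the Fancc side was 1.66 times the other side (0.0466 against 0.0282), while anterior limb was at 0.935 times and posterior limb at 1.07 times. At 400 kb or more posterior limb was 0.413 times the other side (0.0254 against 0.0614), where 33 of 69 mirrored positions were raised. The running median did not show this, with ratios of 1.00, 0.999 and 0.981 in telencephalon, anterior limb and posterior limb.

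**Figure D5:**
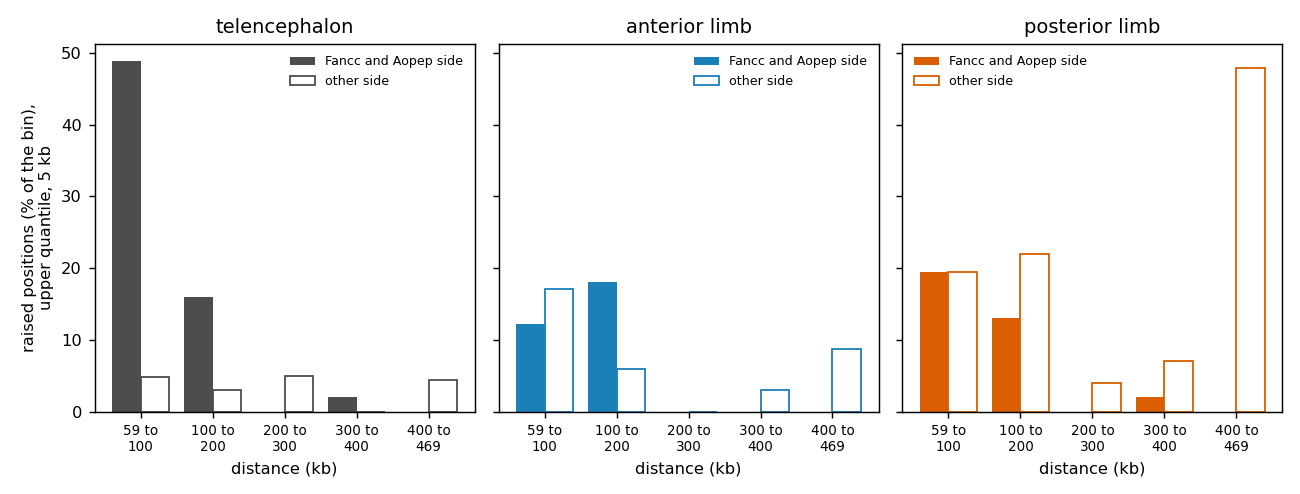
Bars give the percentage of positions whose 5 kb upper quantile was raised, by distance from the viewpoint in kb, for each library, on the Fancc and Aopep side (filled) and at the mirrored distances on the other side (open). Telencephalon has its highest bar (48.8%) on the Fancc side under 100 kb, and posterior limb has its highest (47.8%) on the other side at 400 kb or more.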

How the data were processed

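The authors deposited, per library, a normalised 4C signal along chromosome 13 (mm9, per the submitters' processing notes), summarised at each position in 48 windows of 2 to 49 kb with 3 quantities each. The sources used here do not give the aligner, the read filters or the normalisation. Columns carry no names: the quantities were read as running median, upper quantile and lower quantile from their order, which held in all windows used (0 violations), and the quantile levels are unknown. A 5 kb window was taken to reach 2 kb below and 3 kb above its position, because the positions at 0 then held the fewest unique ends (10, against 20 for a centred window). Values were used as deposited.

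The members and lists were chosen with earlier results of these data known. Means, ratios, raised positions, summits (highest within 10 kb on either side) and intervals (at least 2 positions at 2 times another library) were computed with Python 3.11.15, numpy 2.4.6 and pandas 2.3.3, and plots with matplotlib 3.10.9. The code was tested on simulated profiles. An NlaIII fragment end was called unique where its first 30 bases were found once in the 211 sequences of NCBIM37. Genes come from GENCODE M1, and Aopep was matched through RefSeq synonyms. Named were the genes overlapping the region, Ptch1, and at most 5 summits per tissue and 5 intervals per direction. Other positions, among them the single raised ones in Aopep, were chosen after their values were seen. Alternatives were windows of 2, 10 and 20 kb, windows with at least 20 unique ends, thresholds of 1.5 and 3 times, division by each profile's median, medians in place of means, another reference median, and leaving out the 10 lowest positions.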

Additional observations from a re-analysis of the deposited data

How the results depend on the processing

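In all, 384 values were recomputed, and 322 of them, among them all 222 ratios, stayed within 1.5 times the reported value. Because many of the ratios lie near 1, that band does not show whether a direction turned. Division by the medians turned the running median ratios of limb to telencephalon in the gap from 1.09 (anterior) and 1.07 (posterior) to 0.800 each. Under 100 kb it turned them from 1.21 and 1.19 to 0.889 and 0.890. The ratios of limb to telencephalon over the region turned direction when profiles were divided by their medians (running median 0.976 and 0.973, upper quantile 0.930 and 0.941), and those of the upper quantile also in 2 kb windows (0.957 and 0.931). The other 62 values were counts, given here as telencephalon, anterior limb and posterior limb. Positions raised by the running median (1 each) became 8, 2 and 3 in 2 kb windows and 0 in each library in 10 kb windows, in 20 kb windows and with at least 20 unique ends. They became 2 in telencephalon at 1.5 times, and 0 in telencephalon and posterior limb at 3 times. Running-median summits (1 each) became 4, 2 and 2 in 2 kb windows, 0 in each library under those same 3 settings, and 0 in telencephalon and posterior limb at 3 times. Positions raised by the upper quantile became 11, 8 and 9 at 3 times. Upper-quantile summits (4 each) became 8 each in 2 kb windows, 2 in telencephalon and 1 in anterior limb in 10 kb windows, 2, 1 and 2 in 20 kb windows, 7 in telencephalon at 1.5 times and 2 in anterior limb at 3 times. Running-median intervals (0) became 1 for telencephalon over posterior limb and 1 for posterior over anterior limb in 2 kb windows. Of the upper-quantile intervals, posterior limb over telencephalon (0) became 4 in 2 kb windows and 1 at 1.5 times. Telencephalon over posterior limb (0) became 4 in 2 kb windows, 1 in 10 kb windows, 6 at 1.5 times and 4 after division by the medians. Anterior limb over telencephalon (2) became 1 in 10 kb windows, 0 in 20 kb windows and 1 at 3 times. Telencephalon over anterior limb (3) became 1 in 10 and in 20 kb windows, 5 at 1.5 times and 1 at 3 times. Posterior over anterior limb (3) became 1 in 20 kb windows and at 3 times. Anterior over posterior limb (3) became 0 in 10 and in 20 kb windows and 1 at 3 times. The setting of at least 20 unique ends leaves out the windows of both running-median maxima. The causes of the other changes were not tested. No paired analysis was possible because there is only 1 library for each tissue.

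Neither counting error nor the spread between embryos can be given, so no difference here can be set against them. Of the 411 windows, 21 held under 20 unique ends, 9 of them within 150 kb of the viewpoint, against a median of 52. A narrow window holds few ends and a wide one mixes neighbouring elements, and the intervals above are read at 5 kb.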
